A study of Homo sapiens with 4 samples.

Results

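Transcripts of 10 genes of the Notch pathway were followed in HEK293, a long-established cell line of embryonic kidney origin, after knockdown of CNOT4. They are 3 receptors (*NOTCH1*, *NOTCH2*, *NOTCH3*), the ligands *JAG1* and *JAG2*, 4 genes of the HES and HEY family (*HES1*, *HES4*, *HES6*, *HEY1*) and *NRARP*, picked by gene symbol from the 20457 features of each table. All 10 were found, and all passed the expression minimum of a mean of 1 TPM (transcripts of the gene per 1000000 transcripts, an abundance already divided by length). *HES4* had been seen lower in siCNOT4 when the set was drawn up, so the comparison of the groups is a description of these genes and carries no test for them. Poly(A) RNA was sequenced from 2 libraries of cells given a negative control siRNA (siControl, wild type) and 2 libraries of cells given siRNA against CNOT4 (siCNOT4, labelled CNOT4 knockdown), at 10 nM for 72 h in both groups. The study asked whether CNOT4, an E3 ubiquitin ligase known from the CCR4-NOT deadenylase complex, takes part in the effect of codon usage on gene expression. Nothing in the labels says whether the replicates came from separate cultures, so p-values measure only the spread between these libraries, which may be technical.

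Notch receptors are single-pass membrane proteins that are cut when a ligand of the Jagged or Delta kind on a neighbouring cell pulls on them. A disintegrin protease makes the first of these cuts and the gamma-secretase complex releases the intracellular domain, which enters the nucleus, binds the DNA-binding protein RBPJ and switches on target genes. The best known targets are HES and HEY genes, which encode basic helix-loop-helix repressors, and *NRARP*, which encodes a small ankyrin-repeat protein that limits Notch signalling. In the embryonic kidney, from which the line was made, Notch signalling helps to pattern the nephron.

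RBPJ recognises a short core sequence, TGGGAA. The promoters of *HES1* and *HES4* are shown because they are the members whose 250 bases before the RefSeq transcription start hold it. Capitals mark each match to TGGGAA, and matches were sought on both strands. The sequences are from RefSeq (GRCh38.p14), at chr3:194135898-194136147 on the plus strand for *HES1* and chr1:1000098-1000347 on the minus strand for *HES4*, each written 5′ to 3′ along the gene.
HES1: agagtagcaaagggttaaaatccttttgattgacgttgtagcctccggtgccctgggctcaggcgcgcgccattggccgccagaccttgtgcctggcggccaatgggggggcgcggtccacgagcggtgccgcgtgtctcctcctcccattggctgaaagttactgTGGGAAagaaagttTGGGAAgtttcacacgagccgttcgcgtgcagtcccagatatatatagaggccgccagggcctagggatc
HES4: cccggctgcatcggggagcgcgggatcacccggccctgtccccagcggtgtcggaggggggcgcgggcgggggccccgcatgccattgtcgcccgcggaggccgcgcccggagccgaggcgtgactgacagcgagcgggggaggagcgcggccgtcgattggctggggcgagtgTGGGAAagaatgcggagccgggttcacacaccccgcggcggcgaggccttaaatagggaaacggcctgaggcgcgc
The *HES1* window held 2 matches, at bases 84 to 79 and 70 to 65 before the start. The *HES4* window held 1 match, at bases 76 to 71 before the start. In each promoter 1 match, that farther from the start in *HES1*, was preceded by a G (GTGGGAA, which overlaps TGGGAA). Of 35116 RefSeq promoter windows of the same length, 20.8% held at least 1 TGGGAA, 2.90% held 2 or more and 5.43% held GTGGGAA. Of the 9 members with a promoter in the table, the other 7 had no match in this window. *HEY1* had no entry. The starts used here are those of RefSeq, and for some members they differ from the GENCODE gene positions given below. The *HES6* window (238240039 to 238240288, minus strand) lies wholly inside its GENCODE gene, which reaches to 238240662. The windows of *HES1*, *HES4* and *JAG2* lie partly inside theirs. Windows set by GENCODE starts were not searched, so matches, their positions and their absence hold for the RefSeq starts only.

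The values were scaled by the authors to 1000000 in each library, and a general shift between the groups lies under every value below. Reads recovered from the steps of the TPM values came to between 33.5 and 35.6 per library, in units of 1e6. The median of all 14208 tested features was higher in siCNOT4 by 0.50 on the log2(TPM + 1) scale, and 66.4% of them had both siCNOT4 libraries above both siControl libraries. The siControl libraries differed from each other more than the siCNOT4 libraries did, with an SD of the difference over all tested features of 0.48 against 0.20. *CNOT4* itself was at 6.43 and 4.73 TPM in siControl and at 3.38 and 3.81 TPM in siCNOT4 (log2 difference -0.51, SE 0.26, limma adjusted p 0.184), so the knockdown did not pass the threshold in this test. It passed after TMM scaling (-0.95, limma adjusted p 0.0359) and after quantile normalization (-1.146, 0.0252). It also passed with a length and GC trend or length and GC medians removed (-0.84, 0.0356 and -0.86, 0.0381). It did not pass with a length trend alone removed (-0.67, limma adjusted p 0.0629) or with voom on recovered reads (-0.85, 0.0517). Nor did it pass with a pseudocount of 0.1 (limma adjusted p 0.203) or without the filter on low values (0.220). The same held without the mean trend (0.147) and with a replicate block (0.355). The difference was -0.32 or -0.70 without siControl replicate 1 or 2. Without siCNOT4 replicate 1 or 2 it was -0.44 or -0.57. Of 9 marker genes of the HEK293 line, 8 passed the expression minimum, and *NEFM* did not. The summed level of these 9 stood at 1857 and 1586 TPM in siControl and 1323 and 1332 TPM in siCNOT4, with *VIM* at 917 and 650 against 369 and 354 TPM. Without *VIM* the sums were 941 and 936 against 955 and 978 TPM. *VIM* was called lower (log2 difference -1.09, limma adjusted p 0.0288). *INA* was called higher, at 9.60 and 5.62 against 18.9 and 20.8 TPM (log2 difference 1.32, limma adjusted p 0.0496). Calls made up 25% of the 8 tested markers, against 12.6% of all tested features. Both siCNOT4 libraries were above both siControl libraries in 4 of the 8 and below in 2, against 66.4% and 10.6% of all tested features. The summed level of 10 markers of blood, endothelial, fibroblast and liver cells was 0.393 and 0.339 TPM in siControl against 4.55 and 3.93 TPM in siCNOT4, most of the latter from *LUM* (0.182 and 0.225 against 3.75 and 2.67 TPM). *CD3E* and *CDH5* were at 0 in both siControl libraries, and each of the 10 markers was above 0 in at least 1 library. The part of either marker list in the values below was not tested. In bulk RNA, fewer cells of a kind and less RNA per cell cannot be told apart.

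*HES4* encodes a repressor close to HES1 in its basic helix-loop-helix domain and lies on chromosome 1 (998962 to 1000172, GRCh38, GENCODE 29). It was at 50.5 and 67.5 TPM in siControl and at 29.8 and 29.6 TPM in siCNOT4. Neither siCNOT4 library reached either siControl library, and the siCNOT4 libraries lay closer together than the siControl libraries. The group means were 59.0 ± 12.02 and 29.7 ± 0.136 TPM (SD, n = 2), a ratio of 0.504. On the log2(TPM + 1) scale the difference was -0.95 (SE 0.22), and 0.866% of all tested features had a lower one. The libraries held 681, 1033, 383 and 376 *HES4* reads, and the 95% Poisson intervals of the TPM values were 46.8 to 54.5 and 63.5 to 71.8 in siControl and 26.9 to 33.0 and 26.7 to 32.8 in siCNOT4. Such intervals cover counting error only. The siControl intervals did not overlap each other, and replicate 1 was at 0.748 of replicate 2.

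*HEY1*, which encodes a repressor of the Hairy-related subfamily, was the most abundant member in every library. It lies on chromosome 8 (79764010 to 79767863, GRCh38) and was at 135 and 129 TPM in siControl against 82.8 and 90.8 TPM in siCNOT4. The groups did not overlap, and the gap between them was wider than the gap between replicates. The means were 132 ± 4.62 and 86.8 ± 5.64 TPM (SD, n = 2), a ratio of 0.656 and a log2 difference of -0.60 (SE 0.16). The libraries held 4046, 4371, 2355 and 2551 reads.

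*HES1*, the classical Notch target and the founding mammalian HES repressor, lies on chromosome 3 (194136145 to 194138732, GRCh38). It was at 90.8 and 85.1 TPM in siControl and at 65.4 and 63.1 TPM in siCNOT4. Both siCNOT4 libraries were lower, with a ratio of means of 0.730 and a log2 difference of -0.45 (SE 0.17). *HES6*, whose product counteracts HES1 rather than sharing its role, lies on chromosome 2 (238238267 to 238240662, GRCh38). It was at 20.6 and 21.3 TPM in siControl and at 14.4 and 16.8 TPM in siCNOT4, again without overlap (ratio of means 0.745, log2 difference -0.41, SE 0.25). The order of the levels in siControl was *HEY1*, *HES1*, *HES4* and *HES6*, and no pair of neighbours in it overlapped between libraries. The same order held in siCNOT4. Summed, the 4 genes stood at 297 and 303 TPM in siControl and at 192 and 200 TPM in siCNOT4.

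**Figure D1:**
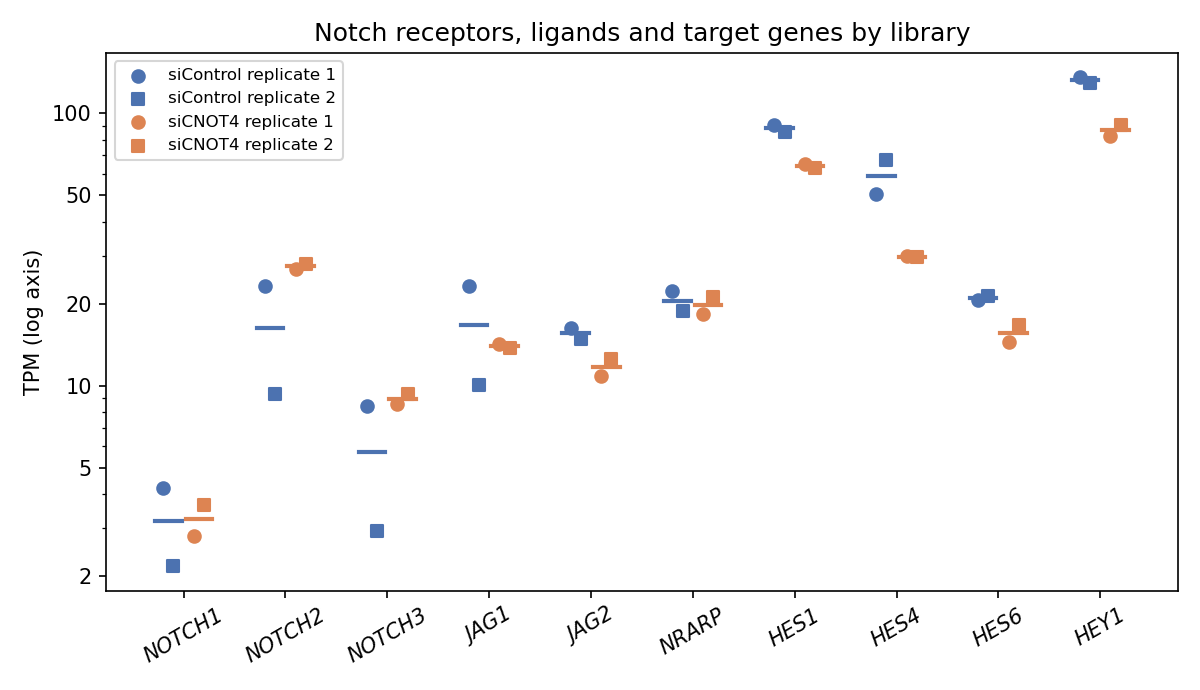
TPM (log axis) of the 10 genes in each library; circles are replicate 1, squares replicate 2, blue siControl, orange siCNOT4, and short lines are group means of n = 2. *HES4* stands at 50.5 and 67.5 TPM in siControl and at 29.8 and 29.6 TPM in siCNOT4, while for *NOTCH2*, *NOTCH3* and *JAG1* the blue points lie far apart.

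Ratios of genes within a library do not change when the library is multiplied by a single factor, but they do change under quantile normalization and under the length and GC corrections described below. The *HES4* to *HES1* ratio was 0.557 and 0.793 in siControl against 0.456 and 0.470 in siCNOT4, so *HES4* was the lower of the pair in every library and lower still relative to *HES1* in siCNOT4. With a length and GC trend removed this turned, with a group difference of -0.03 for *HES4* and -0.21 for *HES1*. The *HES4* difference stayed below that of *HES1* with length and GC medians removed (-0.33 against -0.15). The same held with a trend on length alone removed (-0.57 against -0.14). The *HEY1* to *HES1* ratio was 1.49 and 1.51 in siControl against 1.27 and 1.44 in siCNOT4. The *HES6* to *HES1* ratio overlapped between the groups (0.226 and 0.251 against 0.221 and 0.266). Of the summed level of the 4 genes, *HES4* made up 17.0% and 22.3% in siControl and 15.5% and 14.8% in siCNOT4.

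The features whose profile over the 4 libraries was nearest to that of *HES4* were *DNPH1*, *PACSIN3* and *RPL13A*, by Euclidean distance between log2(TPM + 1) values centred on each feature's own mean (0.039, 0.059 and 0.076) among 11394 features with a mean of at least 5 TPM. *DNPH1*, which encodes a nucleotide hydrolase, was at 206 and 269 TPM in siControl and at 123 and 125 TPM in siCNOT4. *PACSIN3*, which encodes an endocytic adaptor, was at 38.5 and 50.7 against 22.5 and 23.4 TPM. *RPL13A*, a ribosomal protein gene, was at 3579 and 4578 TPM in siControl and at 1999.6 and 2007 TPM in siCNOT4. All 3 share with *HES4* the higher value in siControl replicate 2. The other HES and HEY members were farther from *HES4*, with *HEY1* at rank 355, *HES1* at rank 587 and *HES6* at rank 592 of these features.

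*NRARP* lies on chromosome 9 (137300482 to 137302251, GRCh38). It was at 22.2 and 18.7 TPM in siControl and at 18.3 and 21.2 TPM in siCNOT4. The groups overlapped, with means of 20.4 ± 2.43 and 19.7 ± 2.06 TPM (SD, n = 2) and a log2 difference of -0.05 (SE 0.25). In TPM as deposited, this target thus did not have the separation seen in the 4 HES and HEY genes.

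The ligands differed in how well their replicates matched. *JAG2* (chromosome 14, 105140981 to 105168824, GRCh38) was at 16.3 and 14.9 TPM in siControl and at 10.9 and 12.5 TPM in siCNOT4. The groups did not overlap (ratio of means 0.749, log2 difference -0.39, SE 0.26). Its exons overlap those of *AL512356.1* on the same strand, so its reads are uncertain in origin. *JAG1* (chromosome 20, 10637684 to 10673999, GRCh38) was at 23.2 and 10.0 TPM in siControl and at 14.2 and 13.8 TPM in siCNOT4. Both siCNOT4 values lay between the siControl values, and the log2 difference was -0.12 (SE 0.41). An exon of *AL050403.2* overlaps *JAG1* on the opposite strand, and whether the counting used strand is not given in the sources used here. *JAG1* exceeded *JAG2* in 3 of the 4 libraries, with a ratio of 1.42 and 0.676 in siControl and 1.31 and 1.11 in siCNOT4, so their order in siControl turned with the library.

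Of the receptors, *NOTCH2* was the most abundant in every library and *NOTCH1* the least. *NOTCH2* (chromosome 1, 119911553 to 120069626, GRCh38) was at 23.3 and 9.32 TPM in siControl and at 26.8 and 28.0 TPM in siCNOT4. The siCNOT4 libraries were above both siControl libraries, but the siControl values lay far apart (log2 difference between groups 0.84, SE 0.42). Reads of *NOTCH2* can be shared with its near-identical copies, listed as *NOTCH2NL*, which stood at 5.35 and 4.93 TPM in siControl and at 6.55 and 5.88 TPM in siCNOT4. *NOTCH3* (chromosome 19, 15159038 to 15200981, GRCh38) was at 8.44 and 2.93 TPM in siControl and at 8.59 and 9.31 TPM in siCNOT4. Its siCNOT4 values also lay above both siControl values, by as little as 0.02 on the log2 scale for 1 pairing of libraries (log2 difference between groups 0.71, SE 0.44).

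*NOTCH1* (chromosome 9, 136494433 to 136545786, GRCh38) was at 4.20 and 2.17 TPM in siControl and at 2.81 and 3.65 TPM in siCNOT4. These groups overlapped (log2 difference 0.05, SE 0.31). Within libraries, *NOTCH2* exceeded *NOTCH1* by 5.55 and 4.29 times in siControl and by 9.53 and 7.68 times in siCNOT4. The *NOTCH2* to *NOTCH3* ratio was 2.76 and 3.18 in siControl against 3.11 and 3.01 in siCNOT4, which overlap. *NOTCH1* made up 11.7% and 15.1% of the summed receptor level in siControl and 7.36% and 8.91% in siCNOT4. This share did not overlap between the groups, but how often shares or ratios of genes at large separate in this way was not tested.

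In TPM as deposited, 5 of the 10 genes (*HES1*, *HES4*, *HES6*, *HEY1* and *JAG2*) had both siCNOT4 libraries below both siControl libraries, where 10.6% of all tested features did. Another 2 (*NOTCH2* and *NOTCH3*) had both above, where 66.4% of all tested features did, and 3 overlapped. The difference was below 0 in 7 of the 10 genes, against 18.8% of all tested features, and below the median of all features in 8, against 50% by construction. The median log2 difference of the 10 genes was -0.26, against 0.50 for all tested features. The shift was removed by scaling with trimmed means of M values (TMM), which brought the median of all features to 0.0087, and by quantile normalization, which brought it to 0.019. After either, 8 of the 10 genes (all but *NOTCH2* and *NOTCH3*) had both siCNOT4 libraries below both siControl libraries and 0 had both above. The shares over all tested features were 34.4% lower and 35.3% higher after TMM scaling, and 33.4% lower and 36.2% higher after quantile normalization. The members were drawn up with this contrast in view, so these counts support nothing beyond a description.

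**Figure D2:**
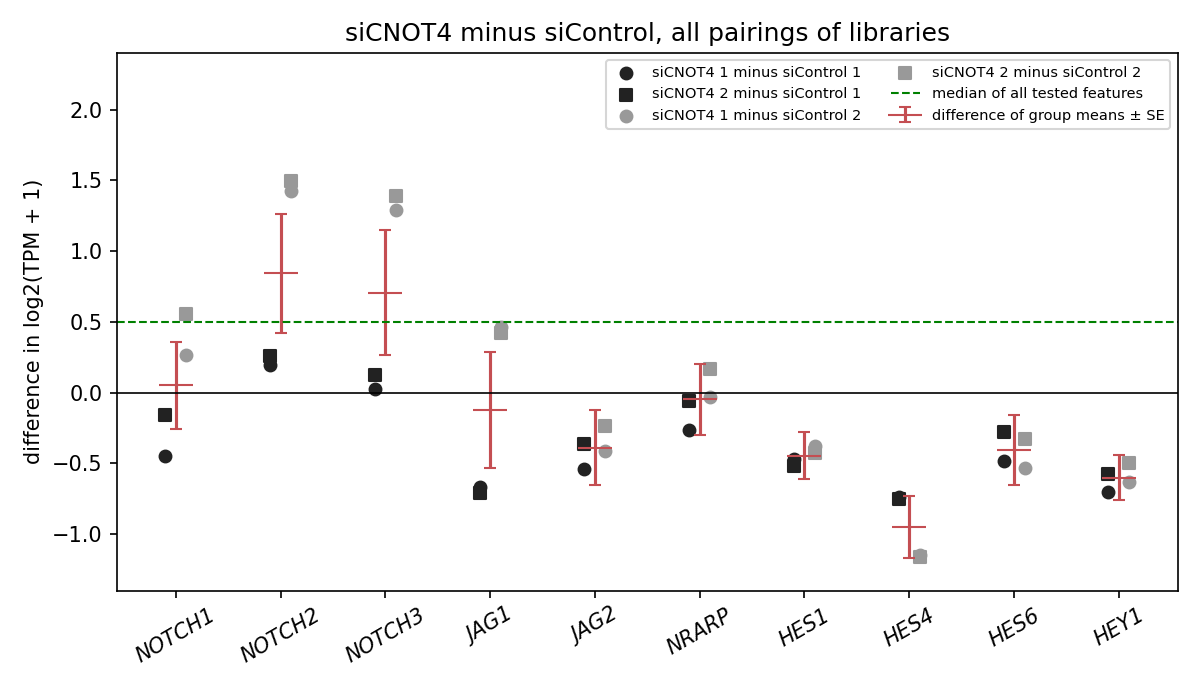
Difference in log2(TPM + 1) for each siCNOT4 library minus each siControl library (black against siControl replicate 1, grey against replicate 2, circles for siCNOT4 replicate 1, squares for replicate 2), with the difference of group means and its SE in red. The 4 pairings of *HES1* run from -0.52 to -0.38, whereas those of *NOTCH2* run from 0.19 to 1.49; the dashed line is the median of all tested features, 0.50.

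The siControl replicates differed most in the receptors and *JAG1*. Replicate 1 exceeded replicate 2 by 1.23 in *NOTCH2*, 1.26 in *NOTCH3*, 1.13 in *JAG1* and 0.71 in *NOTCH1* on the log2(TPM + 1) scale. Over the 10 genes, the siCNOT4 replicates differed by -0.29 to 0.05. These 4 genes are long, between 5987 and 11825 nt in the lengths the TPM values were computed with. The 5 members under 3000 nt (*HES1*, *HES4*, *HES6*, *HEY1* and *NRARP*) differed between siControl replicates by -0.41 to 0.23. *JAG2* is long (5835 nt) but differed by 0.13.

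The same gradient ran through all features. In 10 equal bins by length, the median difference between the siControl replicates went from -0.13 for the shortest features (43 to 1235 nt) to 0.80 for the longest (7831 to 58944 nt). The median difference between the groups went from 0.13 to 0.82 over the same bins. Against the median of its own bin, *HES4* stood at -1.08, *JAG2* at -1.05, *HEY1* at -0.92, *JAG1* at -0.87 and *NOTCH1* at -0.77. *HES1* stood at -0.64, *HES6* at -0.60, *NRARP* at -0.45, *NOTCH3* at -0.12 and *NOTCH2* at 0.02. The values of *NOTCH2* and *NOTCH3* were thus near those of features of their length.

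**Figure D3:**
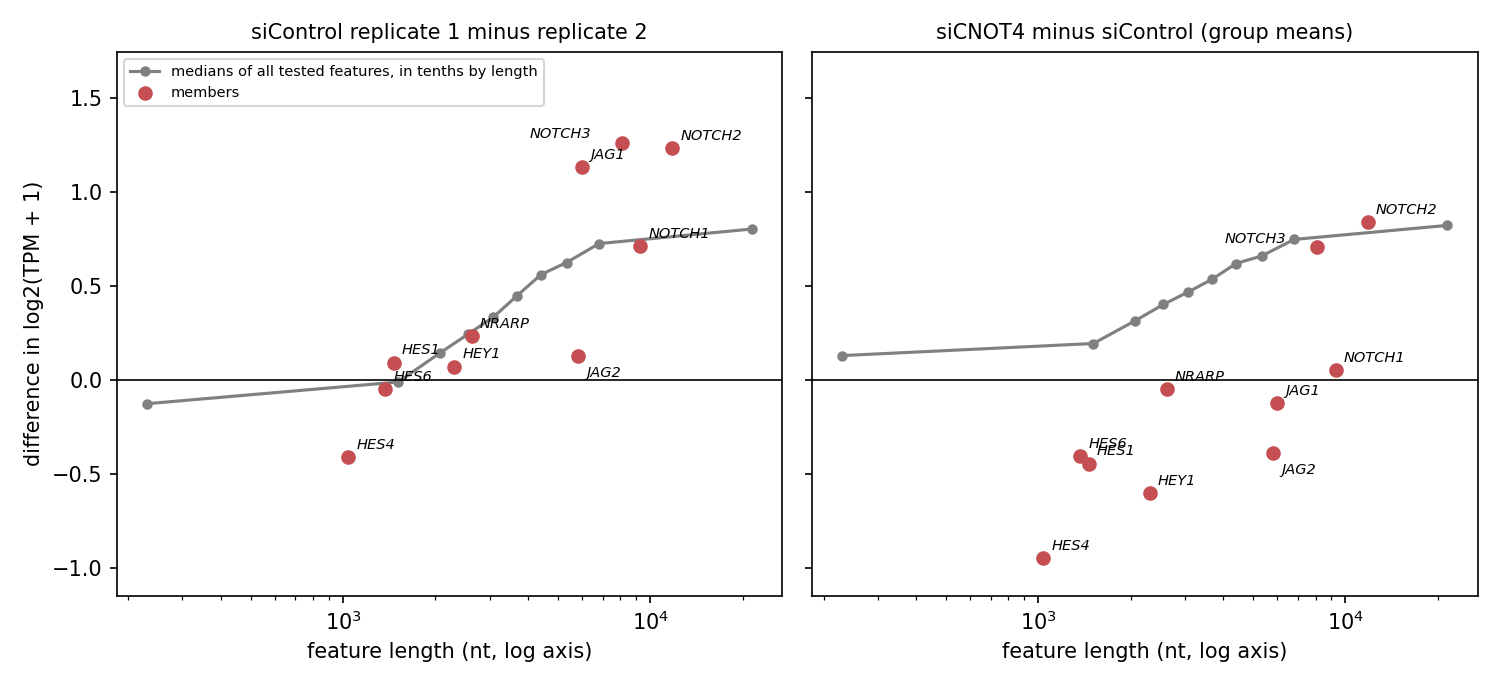
Feature length (nt, log axis) against the difference in log2(TPM + 1) between the siControl replicates (left) and between the groups (right); red points are the 10 genes and the grey line joins the medians of all tested features in 10 bins by length. On the left *NOTCH2*, *NOTCH3* and *JAG1* lie above the line, at 1.13 to 1.26, and on the right *HES4*, at -0.95, and *HEY1*, at -0.60, lie well below it.

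The members also differ in GC content, which was 73.9% in *HES4*, 68.4% in *HES6*, 49.9% in *HES1* and 47.3% in *HEY1*. Features in the shortest length bin and the highest of 5 GC bins, where *HES4* falls (407 features), had a median group difference of -0.08 and a median siControl replicate difference of -0.27. When a trend on length alone was removed, the group difference was -0.57 in *HES4*, -0.14 in *HES1*, -0.09 in *HES6* and -0.47 in *HEY1*, with a median of 0.49 for all features. A pair of corrections for length with GC content was chosen after seeing the data. When the median of each length and GC bin was removed from each library, the *HES4* difference was -0.33, that of *HEY1* -0.44, *HES1* -0.15 and *HES6* 0.06, with a median of 0.50 for all features. When a smooth trend on length and GC was removed instead, the *HES4* difference was -0.03 and that of *HES6* 0.24, with a median of 0.49. That trend is thinly supported at *HES4*: only 5 other features lie within 25% of its length and 2 percentage points of its GC content. *HES4*, *HES1*, *HES6*, *HEY1*, *JAG1*, *JAG2*, *NRARP* and *NOTCH1* stayed below the median of all features in each of the 15 alternatives in which they were tested, by -0.16 at the least (*NRARP*) and -1.87 at the most (*HES4*). Not all of these alternatives could alter that position. The replicate block and the fit without the mean trend leave the differences and their median unchanged. Another filter moves only the median.

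**Figure D4:**
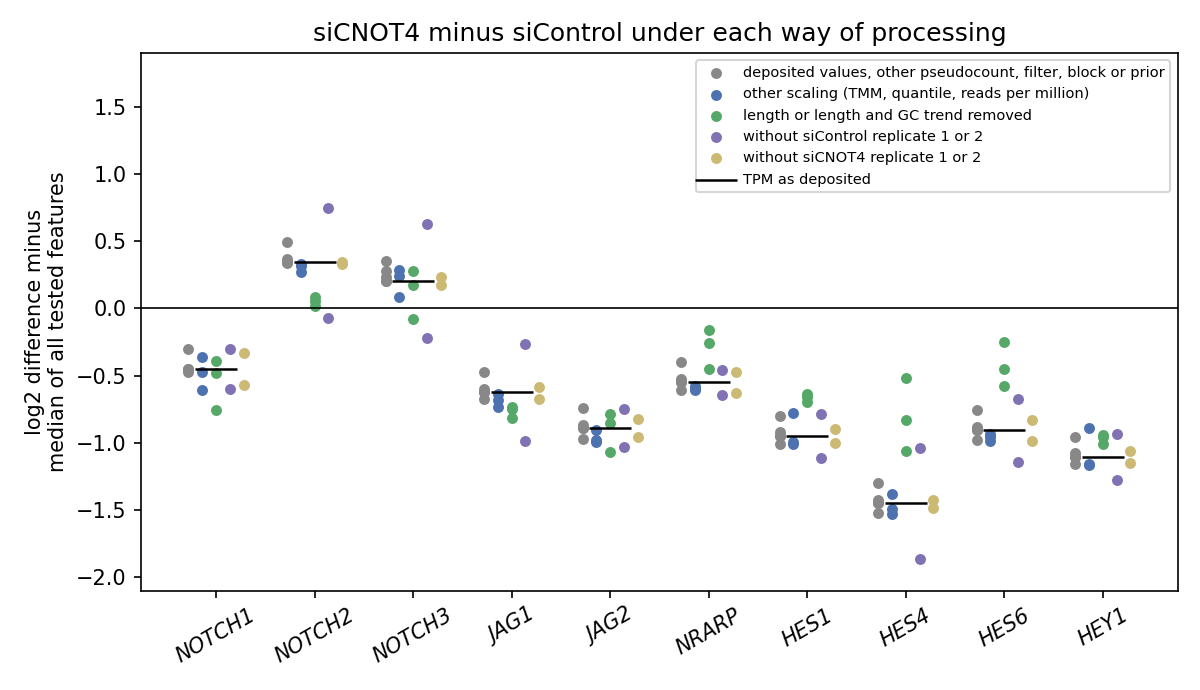
Difference of each gene between siCNOT4 and siControl minus the median difference of all tested features, for TPM as deposited (black line) and for each alternative (points, coloured by kind). *HES4* runs from -1.87 without siControl replicate 1 to -0.52 with a length and GC trend removed, and *NOTCH2* and *NOTCH3* have points on both sides of 0.

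The rest of the pathway was followed in 77 genes in 9 lists, none of which holds a member. Like the members, these lists were chosen with earlier results of these data known. Of the 77 genes, 63 passed the expression minimum. Of the 63, 4 passed the test (limma on log2(TPM + 1), Benjamini-Hochberg adjusted p under 0.05 over all features), all higher in siCNOT4. That is 6.35%, against 12.6% of all tested features (11.3% higher and 1.3% lower). Among the 4, *DNER* and *NEURL1* passed the expression minimum only through their siCNOT4 values, as given below. At an unadjusted p under 0.05 there were 19 higher and 1 lower of the 63, where 38% of all tested features were higher and 4% lower at that threshold. The median log2 difference of the 63 genes was 0.27, below the 0.50 of all tested features.

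*DNER*, which encodes a transmembrane protein proposed as a Notch ligand, rose from 1.08 and 0.810 TPM in siControl to 7.36 and 8.15 TPM in siCNOT4 (log2 difference 2.17, SE 0.23, limma adjusted p 0.0227). It rested on 46 and 39 reads in siControl and on 297 and 325 in siCNOT4. Its siControl mean was 0.948 TPM, so it passed the expression minimum of 1 TPM only through its siCNOT4 values. Among the other receptors and ligands, *DLL1* was at 5.46 and 3.49 against 5.88 and 7.14 TPM, and *DLL3* at 11.4 and 13.3 against 11.8 and 12.7 TPM. *NOTCH4*, *DLL4* and *DLK1* were below the expression minimum.

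Of 9 genes for cutting the receptor, 1 passed the test, which is 11.1% against 12.6% of all tested features. At a limma unadjusted p under 0.05, 4 of the 9 were higher, where 38% of all tested features were. *APH1B*, a gamma-secretase subunit, rose from 7.01 and 3.47 to 16.8 and 16.3 TPM (log2 difference 1.55, SE 0.36, limma adjusted p 0.0453). Its paralogue *APH1A* was at 184 and 157 against 173 and 172 TPM. The nicastrin gene *NCSTN* (88.2 and 44.6 against 116 and 127 TPM) had higher values in siCNOT4 without passing the threshold (limma adjusted p 0.0833).

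The list for endocytosis and ubiquitination had 12 tested genes, and in all 12 both siCNOT4 libraries were above both siControl libraries, as they were in 66.4% of all tested features. *NUMBL*, which encodes an adaptor of the Numb kind that opposes Notch, rose from 7.96 and 6.06 to 16.4 and 20.9 TPM (log2 difference 1.29, SE 0.29, limma adjusted p 0.0443). *NEURL1*, listed as *NEURL*, encodes a ubiquitin ligase of the Neuralized family and rose from 0.519 and 0.504 to 1.30 and 1.82 TPM (log2 difference 0.75, SE 0.18, limma adjusted p 0.0474). It rested on 29 and 32 reads in siControl and on 69 and 96 in siCNOT4. Its siControl mean was 0.511 TPM, so like *DNER* it passed the expression minimum only through its siCNOT4 values. The other 10 genes of the list did not pass the test. The 2 calls are 16.7% of the 12, against 12.6% of all tested features. At a limma unadjusted p under 0.05, 9 of the 12 were higher, where 38% of all tested features were. *DTX1*, a Deltex gene and itself a Notch target, was under the expression minimum at 0.188 and 0.124 TPM (8 and 6 reads) in siControl and 1.08 and 1.27 TPM (44 and 51 reads) in siCNOT4, and is named here after its values were seen.

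In the nucleus, *RBPJ* was at 52.4 and 31.9 TPM in siControl and at 78.8 and 70.2 TPM in siCNOT4 (log2 difference 0.85, SE 0.27, limma adjusted p 0.0739). Without siControl replicate 1 the difference was 1.198, where the median of all features was 0.71. Without siControl replicate 2 it was 0.50, where that median was 0.29. Without siCNOT4 replicate 1 or 2 it was 0.77 or 0.93, where the medians were 0.53 and 0.48. The difference was 0.31 after TMM scaling and 0.46 after quantile normalization. It was 0.45 and 0.43 with the length and GC trend or medians removed, below the medians of all features there (0.49 and 0.50). *RBPJ* did not pass after either scaling or after either of these corrections. None of the 9 genes of the activation complex and none of the 14 corepressor genes passed the limma test, where 12.6% of all tested features did. In each of these lists 2 genes were higher at an unadjusted p under 0.05, where 38% of all tested features were. Of the other HES and HEY genes, *HES5* and *HES3* were listed at 0 in every library. *HEY2* was at 18.5 and 14.3 TPM in siControl and at 11.9 and 12.5 TPM in siCNOT4 (log2 difference -0.39, SE 0.27, limma adjusted p 0.298), and *HEYL* was at 5.85 and 3.98 against 6.34 and 7.12 TPM. Among 7 other Notch-responsive genes 0 passed the limma test, where 12.6% of all tested features did. Of the 7, 1 was lower at an unadjusted p under 0.05, where 4% of all tested features were. That was *CCND1*, the cyclin D1 gene, at 49.3 and 32.3 against 20.1 and 24.8 TPM (log2 difference -0.81, SE 0.28, limma adjusted p 0.0868).

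The direction of the calls in these lists depended on the scaling. After TMM scaling 7 genes were called, 2 higher (*DNER* and *APH1B*) and 5 lower (*TLE1*, *HEY2*, *MYC*, *CCND1* and *TRIB2*), against 8.78% of all tested features (4.45% higher and 4.33% lower). *HEY2* then had a log2 difference of -0.90 (limma adjusted p 0.0363) and *CCND1* of -1.34 (0.0298). After quantile normalization 15 were called, 4 higher and 11 lower, against 15.3% of all tested features (7.11% higher and 8.23% lower). *DNER*, which met the minimum of 1 TPM only through its siCNOT4 values, was called higher in 14 of the 15 alternatives. The other was the minimum of 5 TPM, which it did not reach. *APH1B*, *NUMBL* and *NEURL1* were not called without siCNOT4 replicate 1, without siCNOT4 replicate 2, with a pseudocount of 0.1, without the filter on low values or, for *NUMBL* and *NEURL1*, after TMM scaling or quantile normalization. *APH1B* and *NEURL1* were also not called by limma without the mean trend, and none of the 4 with the minimum of 5 TPM.

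**Figure D5:**
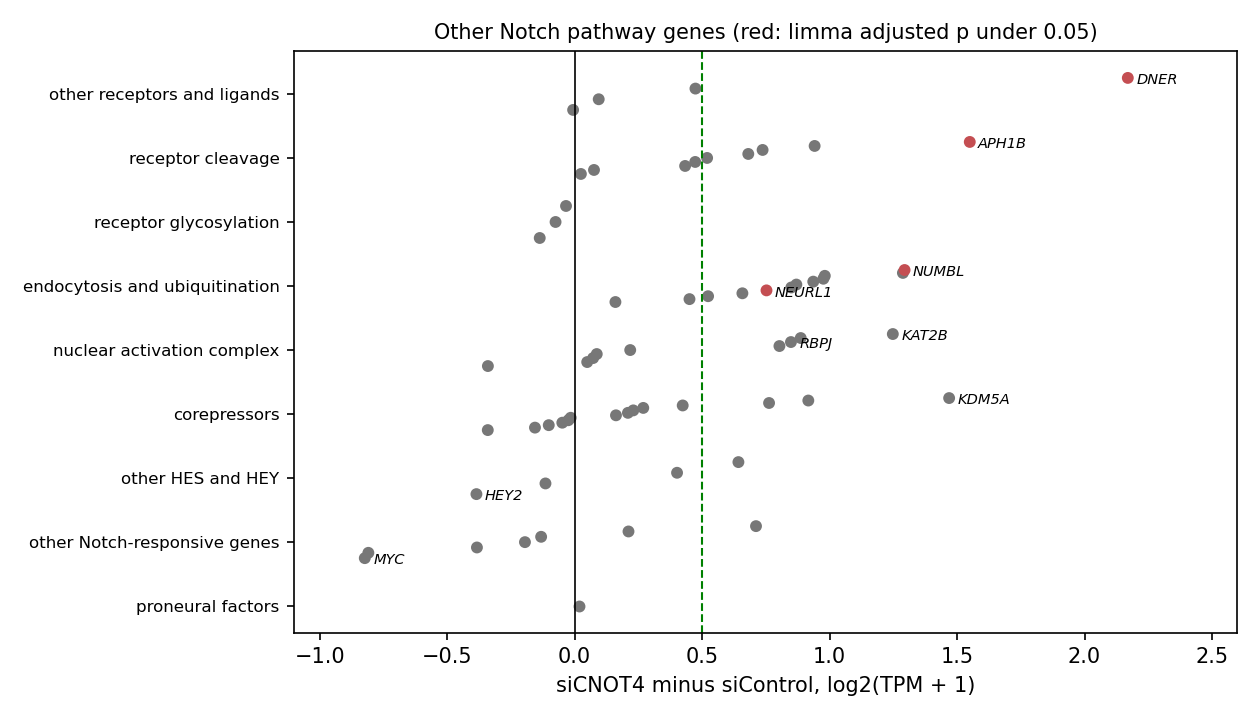
Difference between siCNOT4 and siControl on the log2(TPM + 1) scale for the 63 tested genes of the 9 lists, 1 point per gene, red where the limma adjusted p was under 0.05. The dashed line is the median of all tested features, 0.50; the 4 red points are *DNER*, *APH1B*, *NUMBL* and *NEURL1*, and 18 genes lie below 0.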

How the data were processed

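RNA from 4 HEK293 libraries, 2 per group, was sequenced. The deposited values are TPM per gene symbol, per the file headers, and the submitters' processing notes name FastQC 0.11.2, STAR 2.5.3a, featureCounts and hg19. The annotation and whether the counting used strand are not given in the sources used here. The members and the pathway lists were chosen with earlier results of these data known. Features with a mean of at least 1 TPM (14208 of 20457) were fitted as log2(TPM + 1) with limma 3.58.1 in R 4.3.3 (moderated by a mean trend, Benjamini-Hochberg adjusted p over all of them, threshold 0.05), and fold changes on this scale understate those of low features. The code of the fit was checked on simulated data with the same spread for all genes and libraries and no general shift between groups. The real libraries differ in both, so that check does not bear on the calls. Standard errors are given for the members, with no test. Genes named are the members, CNOT4, RBPJ, pathway genes past the threshold and the 3 features nearest to *HES4*; the others named are examples of their list, chosen after their values were seen.

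TPM times length is a whole multiple of what 1 read is worth, and lengths for which this held within 0.005 reads in all 4 libraries gave reads for 99.98% of features above 0. These reads served for depth, counting intervals and 1 alternative. Symbols were matched to GENCODE 29 (GRCh38) for positions, since the tables hold no coordinates: 18438 by symbol, 965 by an older symbol and 1054 not. GC content is that of the matched transcript. Alternatives were another pseudocount, filter, scaling (TMM computed on TPM, or quantile), trend or prior, a replicate block, each replicate left out and, chosen after seeing the data, voom on the reads and 2 corrections for length with GC content.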

Additional observations from a re-analysis of the deposited data

How the results depend on the processing

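Over all features 1792 were called, and counts moved most with the libraries used, from 450 (without siCNOT4 replicate 2) to 11311 (without siControl replicate 1) when each replicate was left out, where the lone library is assumed to vary like the other group. Calls numbered 558 with a pseudocount of 0.1, 908 without the filter, 147 with a minimum of 5 TPM, 3817 with the length trend removed, 756 without the mean trend, 3647 with a length and GC trend removed and 3343 with length and GC medians removed. The 4 calls among pathway genes became 1, 2, 0, 12, 2, 12 and 10 in the same order, 7 after TMM scaling, 15 after quantile normalization and 1 to 41 when each replicate was left out. With the replicate block there were 3655 calls over all features and 14 among pathway genes, *RBPJ* among them. The labels give no shared batch behind the replicate numbers, and the replicate differences of the groups correlated at 0.17 across features. The members' median relative to all features, -0.76, was -0.61 without the filter, -0.87 with a minimum of 5 TPM, -0.46 with the length and GC trend removed and -0.57 with length and GC medians removed.

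*NOTCH1* (0.05) was at -0.35 after TMM scaling, -0.59 after quantile normalization, -0.26 after length correction and -0.15 with voom, and ran from -0.31 (without siControl replicate 2) to 0.41 (without siControl replicate 1) when each replicate was left out, with -0.093 without siCNOT4 replicate 2. *JAG1* (-0.12) ran from -0.69 without siControl replicate 2 to 0.44 without siControl replicate 1. *HES6* (-0.41) was at 0.24 with the length and GC trend removed and at 0.057 with the medians removed. *NRARP* (-0.05) was at 0.33 and 0.25 under these and at 0.042 after length correction. It ran from -0.16 without siControl replicate 2 to 0.068 without siControl replicate 1, with 0.053 without siCNOT4 replicate 1. The cause was not tested. With 2 libraries per group, precision is limited by the spread between siControl replicates.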
